A study of Mus musculus with 16 samples.

Results

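Glycolysis turns glucose into pyruvate and lactate, and many of its genes belong to the programme that cells switch on when oxygen is short. Transcripts of 39 such genes, from the glucose transporters through the enzymes of each step and lactate handling to the hypoxia-inducible factors and their common targets, were followed here in 16 RNA-seq libraries. The genes were taken from a written list by symbol and make up 39 of the 25745 genes in the count table. All 39 were found, and 37 of them passed the filter on low counts that 14445 genes passed. Adm and Slc16a3 did not.

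The cells were 6DT1, a mammary cancer cell line of the mouse strain the labels write as FVB/N1, a model grown in culture without other tissue. One set carried a lentivirus for CLIC4, which belongs to the chloride intracellular channel proteins, and the other an empty vector. Each was cultured with no treatment or for 24 h with H2O2 (hydrogen peroxide) at 1 µM, with 4 libraries in each of the 4 groups: libraries 1 to 4 are lentivirus untreated, 5 to 8 lentivirus with H2O2, 9 to 12 empty vector untreated and 13 to 16 empty vector with H2O2. The labels differ on the genotype: sample descriptions call the empty-vector cells a CLIC4 knockout and the lentivirus cells wild type, while the series text names only the vectors. Nothing in them says that the libraries of a group are separate cultures or clones, so p-values measure the spread between these libraries, which may be technical.

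Total counts ran from 47089156 to 61945199 a library. Clic4 itself stood at 222 to 258 CPM (counts relative to library size, scaled by TMM) in the 8 lentivirus libraries and at 39.5 to 45.1 CPM in the empty-vector libraries other than library 11, where it was 138 CPM. Library 11 stood apart from its group in much else: its TMM scaling factor was 0.721 against 0.986 to 1.04 in the other 15, and the biological coefficient of variation of the fit was 23.1% with it and 5.28% without it. Counts of calls are therefore given with all 16 libraries and again without library 11. A change given with no setting named is from the fit of all 16 libraries, so in untreated cells it includes library 11. Mitochondrial mRNA took 1.32% to 3.42% of counts in untreated and 1.20% to 2.64% in treated lentivirus libraries. It took 1.10% to 1.46% in libraries 9, 10 and 12, 3.04% in library 11 and 2.33% to 2.99% in the treated empty-vector libraries. The luminal keratin gene Krt8 was read at 371 to 632 CPM and the mesenchymal gene Vim at 2519 to 3923 CPM, while the epithelial genes Epcam and Cdh1 were at or below 0.0357 and 0.126 CPM in every library other than library 11, where they reached 13.0 and 1.53 CPM.

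Glucose enters the cell through facilitative transporters, is trapped by hexokinase and committed to glycolysis by phosphofructokinase, and the pyruvate that results is either oxidised in mitochondria or reduced to lactate and exported with a proton. Hypoxia-inducible factors (HIF) are pairs of an oxygen-regulated alpha subunit, HIF-1 alpha (Hif1a) or HIF-2 alpha (Epas1), and the constant partner ARNT. In oxygenated cells the prolyl hydroxylases of the Egln genes mark the alpha subunits for destruction, a control on the protein that does not need a change in Hif1a mRNA. Stabilised HIF binds a short DNA motif with the core ACGTG or GCGTG and raises the transcription of glucose transporters, most glycolytic enzymes, the pyruvate dehydrogenase kinase Pdk1, the carbonic anhydrase Car9, the mitophagy gene Bnip3 and its own hydroxylase Egln3. Tumour cells, mammary cancers included, often run this programme in oxygen as well.

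The start regions of 6 members are printed here because they are textbook HIF targets, or a counterpart that is not (Ldhb), that moved in different directions between the vectors. Each is a RefSeq window of 300 bases on GRCm38.p6 that holds 250 bases before and 50 from the annotated start, written 5′ to 3′ on the strand of the gene. Capitals mark ACGTG or GCGTG read on either strand, so that CACGT and CACGC are the same motifs on the opposite strand. The run CACGTG in the Bnip3 window is ACGTG on both strands, counted as 2 overlapping matches.
Slc2a1 (chr4:119108495-119108794, + strand): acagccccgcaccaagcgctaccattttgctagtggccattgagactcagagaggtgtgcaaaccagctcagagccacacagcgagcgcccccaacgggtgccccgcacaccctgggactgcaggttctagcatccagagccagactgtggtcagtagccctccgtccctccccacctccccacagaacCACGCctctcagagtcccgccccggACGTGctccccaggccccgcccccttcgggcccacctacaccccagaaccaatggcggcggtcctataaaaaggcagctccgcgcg
Car9 (chr4:43506776-43507075, + strand): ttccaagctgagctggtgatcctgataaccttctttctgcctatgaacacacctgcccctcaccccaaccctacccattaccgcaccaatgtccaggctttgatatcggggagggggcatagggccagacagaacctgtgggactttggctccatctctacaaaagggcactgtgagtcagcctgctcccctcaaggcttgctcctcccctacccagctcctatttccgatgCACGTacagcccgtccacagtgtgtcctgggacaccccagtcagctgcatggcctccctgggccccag
Egln3 (chr12:54203825-54204124, - strand): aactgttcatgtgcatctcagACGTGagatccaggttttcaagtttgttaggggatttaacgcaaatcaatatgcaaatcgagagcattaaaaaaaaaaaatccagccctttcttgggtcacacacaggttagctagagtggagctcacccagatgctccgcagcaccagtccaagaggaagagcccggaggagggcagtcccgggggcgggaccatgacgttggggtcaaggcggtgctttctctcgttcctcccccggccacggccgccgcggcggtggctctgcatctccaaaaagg
Pdk1 (chr2:71872974-71873273, + strand): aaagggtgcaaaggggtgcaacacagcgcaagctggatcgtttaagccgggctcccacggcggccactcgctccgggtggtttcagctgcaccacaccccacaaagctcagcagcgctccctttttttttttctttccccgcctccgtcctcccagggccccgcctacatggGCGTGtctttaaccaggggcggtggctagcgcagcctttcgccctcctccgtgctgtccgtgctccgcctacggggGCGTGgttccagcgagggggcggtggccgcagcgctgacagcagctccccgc
Bnip3 (chr7:138909457-138909756, - strand): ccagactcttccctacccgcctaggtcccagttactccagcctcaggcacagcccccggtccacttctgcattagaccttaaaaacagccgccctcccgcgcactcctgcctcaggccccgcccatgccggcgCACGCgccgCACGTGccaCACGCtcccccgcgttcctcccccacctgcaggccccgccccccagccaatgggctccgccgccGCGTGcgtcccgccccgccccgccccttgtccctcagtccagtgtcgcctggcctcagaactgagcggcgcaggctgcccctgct
Ldhb (chr6:142507908-142508207, - strand): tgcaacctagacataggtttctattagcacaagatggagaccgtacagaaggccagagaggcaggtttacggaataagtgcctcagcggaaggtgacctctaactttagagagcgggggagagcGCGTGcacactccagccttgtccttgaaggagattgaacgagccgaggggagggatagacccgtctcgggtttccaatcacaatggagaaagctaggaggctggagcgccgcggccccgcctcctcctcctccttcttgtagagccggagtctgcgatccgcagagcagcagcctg

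The Bnip3 window held 5 matches, those of Slc2a1 and Pdk1 2 each, and those of Car9, Egln3 and Ldhb 1 each. Windows were given for 35 of the 39 members, 49 windows in all, and 40 of the 49 held at least 1 match, against 43.8% of 32851 RefSeq windows of the same length. ACGTG was in 27 of the 49 member windows (19.6% of all windows), GCGTG was in 29 (32.4%), and CACGTG, which overlaps ACGTG, in 6 (7.15%). Taking for each gene the window nearest to its annotated start, 11 of 13 held a match among members called higher in empty-vector cells under H2O2 without library 11, 10 of 13 among those called lower and 5 of 7 among those not called. Genes with and without these letters were thus found in each direction. For Ankrd37, Hif1a and Ldha, counted with a match, the nearest window lay 5857, 6492 and 4329 bases from the annotated gene start. A match is a description of the letters and no evidence of binding, and these windows leave out more distant sites.

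Between the vectors the 37 tested members moved in both directions, and few moved far. In untreated cells 15 members were higher with the empty vector than with the CLIC4 lentivirus and 8 were lower at an adjusted p under 0.05 (edgeR quasi-likelihood test, Benjamini-Hochberg over all genes tested, as everywhere below), where 29.0% of all 14445 genes were called higher, 24.3% lower and 53.3% in either direction. Leaving out library 11 gave 17 and 13 members, against 37.0% and 37.3% of genes, 74.4% in either direction. Under H2O2 they were 12 higher (background 22.1%) and 7 lower (20.0%), with 42.1% of genes called in either direction, and without library 11 they were 15 (36.6%) and 15 (37.2%), with 73.8%. As shares of the 37 members, 40.5% and 21.6% were called higher and lower in untreated cells and 32.4% and 18.9% under H2O2, and no test set these shares against the rest of the genes. A change of at least 2-fold was rarer: 4 members higher (background 12.1%) and 1 lower (9.81%) in untreated cells, and 2 higher (9.63%) and 1 lower (7.59%) under H2O2. With library 11 left out, 3 were higher (10.1%) and 1 lower (10.3%) in untreated cells, and 2 higher (10.3%) and 1 lower (8.62%) under H2O2. The median member change was 0.24 on the log2 scale in untreated cells and 0.03 under H2O2, beside 0.03 and -0.01 over all genes, and without library 11 the 2 medians of members were 0.06 and 0.03, beside -0.02 and -0.01.

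The calls in untreated cells did not depend on library 11 for their direction: all 23 kept it without that library. The 19 calls under H2O2 kept theirs too. Library 11 is in neither group compared there, so leaving it out could not test their direction. With all libraries, 16 members were called in the same direction in untreated and treated cells, 11 higher (19.5% of all genes) and 5 lower (16.3%), and none in opposite directions. Without library 11 there were 28, of which 15 were higher (33.3%) and 13 lower (32.3%). Levels of the groups did not overlap for 15 members that were higher (24.0% of all genes) and 11 that were lower (25.6%) in untreated empty-vector cells, and for 15 (34.6%) and 14 (34.8%) under H2O2.

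**Figure D1:**
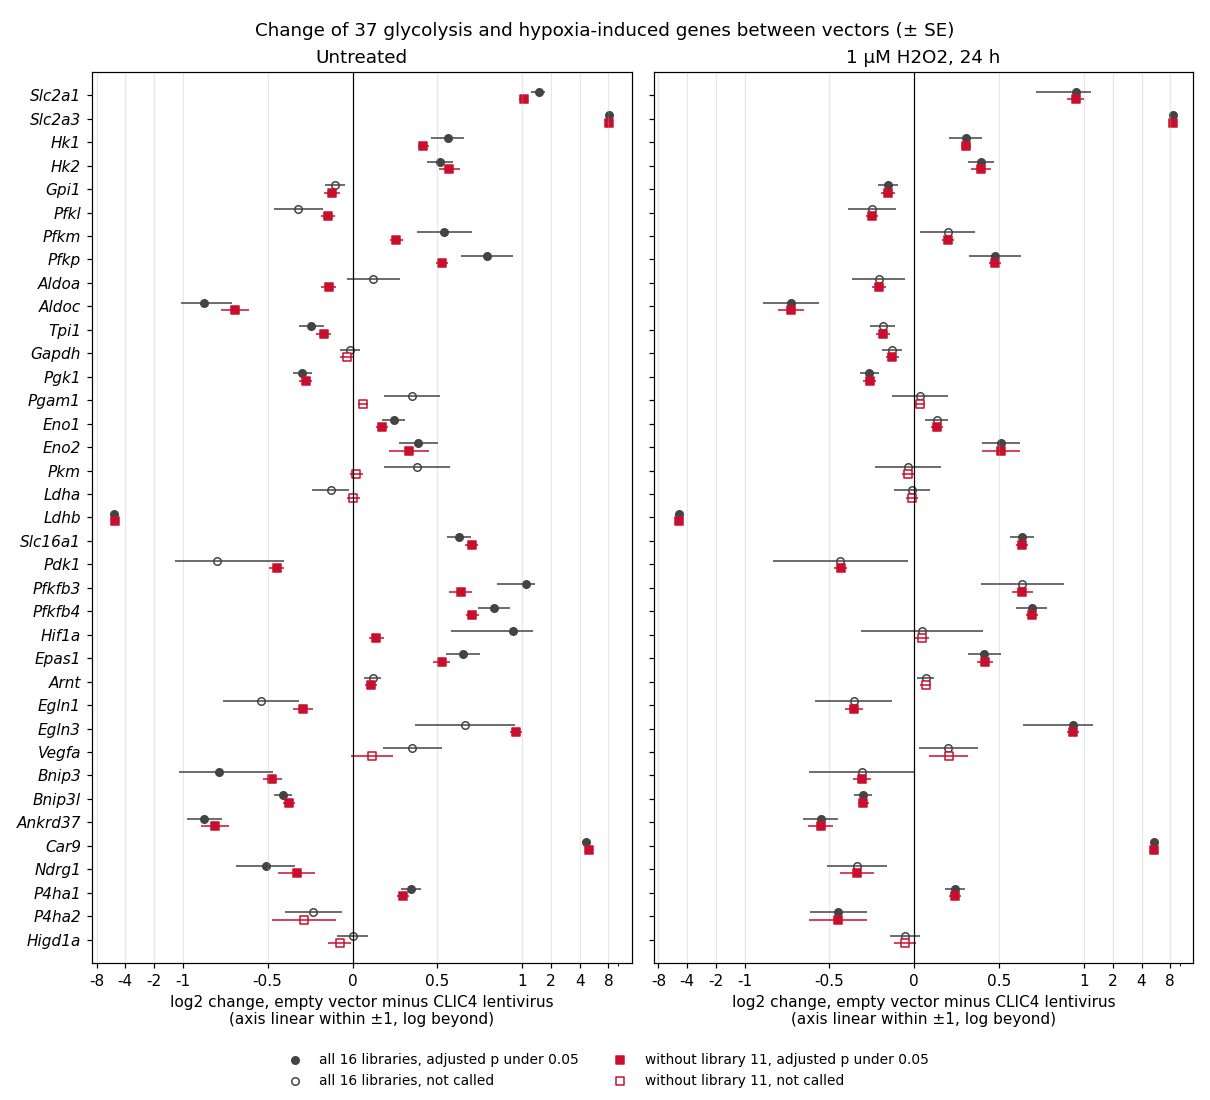
Log2 change (x axis) (an axis linear within ±1 and logarithmic beyond) of each of the 37 tested members (rows) between empty-vector and CLIC4 lentivirus cells, untreated on the left and with H2O2 on the right; points are edgeR estimates, bars ± 1 SE, grey with all 16 libraries and red without library 11, filled where the adjusted p is under 0.05. Slc2a3 and Car9 lie far to the right and Ldhb far to the left in both panels, most others lie within ±1, and the red bars are shorter.

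Some markers of cell states differed between the vectors too, as many other genes did. Sums over each marker list are given for the 8 lentivirus libraries, for the 7 empty-vector libraries other than library 11, and for library 11. They were 591 to 643, 953 to 1057.5 and 1610.4 CPM for 11 luminal markers, 2703 to 2841, 3901 to 4358 and 4273 CPM for 12 basal or mesenchymal markers, and 78.0 to 93.0, 223 to 258 and 388 CPM for 7 immune markers. For 5 endothelial markers they were 167 to 183, 219 to 252 and 502 CPM, for 7 fibroblast markers 13.7 to 18.2, 17.3 to 20.5 and 22.1 CPM, and for 6 muscle markers 5.01 to 6.67, 9.11 to 9.85 and 14.8 CPM. The 2 red cell markers summed to at most 0.0354 CPM, 0 and 1.22 CPM. In the order luminal, basal, immune, endothelial, fibroblast and muscle, 5, 6, 1, 2, 3 and 1 markers reached 1 CPM in a lentivirus library and 5, 5, 2, 2, 2 and 2 in an empty-vector library other than library 11, where 8, 6, 3, 3, 3 and 4 did. The members of a list did not move as one. Leaving out library 11, levels of 4, 5, 2, 1, 3 and 2 markers lay above those of all lentivirus libraries and levels of 2, 1, 1, 1, 3 and 0 lay below them. Within 1 treatment and with all libraries, 24.0% of all genes lay above and 25.6% below untreated, and 34.6% and 34.8% with H2O2. The share over both treatments without library 11 is not given, so the markers are not set apart from other genes. Some rest on low levels, such as Acta2 (at most 0.190 CPM) and Lum (at most 0.316 CPM). Cd68 made up nearly all of the immune sum, at 77.3 to 92.5 CPM with the lentivirus, 218 to 253 CPM with the empty vector and 369 CPM in library 11. Vim made up most of the basal sum, at 2519 to 2670 CPM with the lentivirus and 3545 to 3923 CPM in treated empty-vector cells. Flt1 carried the endothelial sum, while Cdh5 of the same list was lower, at 79.3 to 85.5 CPM with the lentivirus and 3.02 to 4.25 CPM with the empty vector. Trp63 of the basal list and Col1a1, Dcn and Lum of the fibroblast list were lower too. The defining immune gene Ptprc did not exceed 0.0536 CPM in any library and the endothelial gene Pecam1 not 0.595 CPM outside library 11, and the 2 adipocyte markers summed to at most 0.130 CPM. Their part in the results for the glycolysis genes was not tested. In RNA from a whole culture, fewer cells with a transcript and less of it in each cell cannot be told apart.

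Glucose uptake held the largest change of the whole list. Slc2a1 encodes GLUT1, the transporter of most tumour cells, and was higher with the empty vector. In lentivirus cells it stood at 234, 249.6, 234 and 232 CPM untreated and 256, 263, 249 and 262 CPM with H2O2. In empty-vector cells it stood at 462, 468, 1186 and 534 CPM in libraries 9 to 12 and 521, 470.4, 543 and 456 CPM with H2O2. Every empty-vector library lay above every lentivirus library, and library 11 was the highest of all. The log2 change was 1.48 ± 0.24 (adjusted p = 0.000129) in untreated cells, 1.04 ± 0.06 (adjusted p = 2.95e-11) without library 11, and 0.95 ± 0.23 (adjusted p = 0.00427) under H2O2.

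Slc2a3 encodes GLUT3, a transporter of high glucose affinity best known from neurons, and went from barely detected to well expressed. It stood at 0.571, 0.292, 0.495 and 0.474 CPM in untreated lentivirus cells and 0.339, 0.397, 0.351 and 0.350 CPM with H2O2. With the empty vector it stood at 125, 124, 96.7 and 127 CPM untreated and 124, 122, 139.7 and 133 CPM with H2O2. All empty-vector libraries were at or above 96.7 CPM and all lentivirus libraries at or below 0.571 CPM, so the groups were far apart, and library 11 was here the lowest of the empty-vector libraries. The log2 change was 8.01 ± 0.17 (adjusted p = 1.56e-13) in untreated cells, 8.10 ± 0.08 (adjusted p = 8.21e-24) without library 11, and 8.49 ± 0.18 (adjusted p = 1.13e-13) under H2O2. Per unit of transcript length, in the deposited FPKM, Slc2a3 made up 0.0822% to 0.354% of the summed FPKM of both transporters in lentivirus cells and 15.7% to 18.7% in empty-vector cells other than library 11, where it was 6.12%. Slc2a1 therefore remained the main glucose transporter transcript of both kinds of cell, by 81.3% to 93.9% of the pair with the empty vector, and the summed FPKM of both was 80.5 ± 3.56 (SD, n = 4) in untreated lentivirus cells and 206 ± 14.2 (SD, n = 3) in untreated empty-vector cells without library 11.

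**Figure D2:**
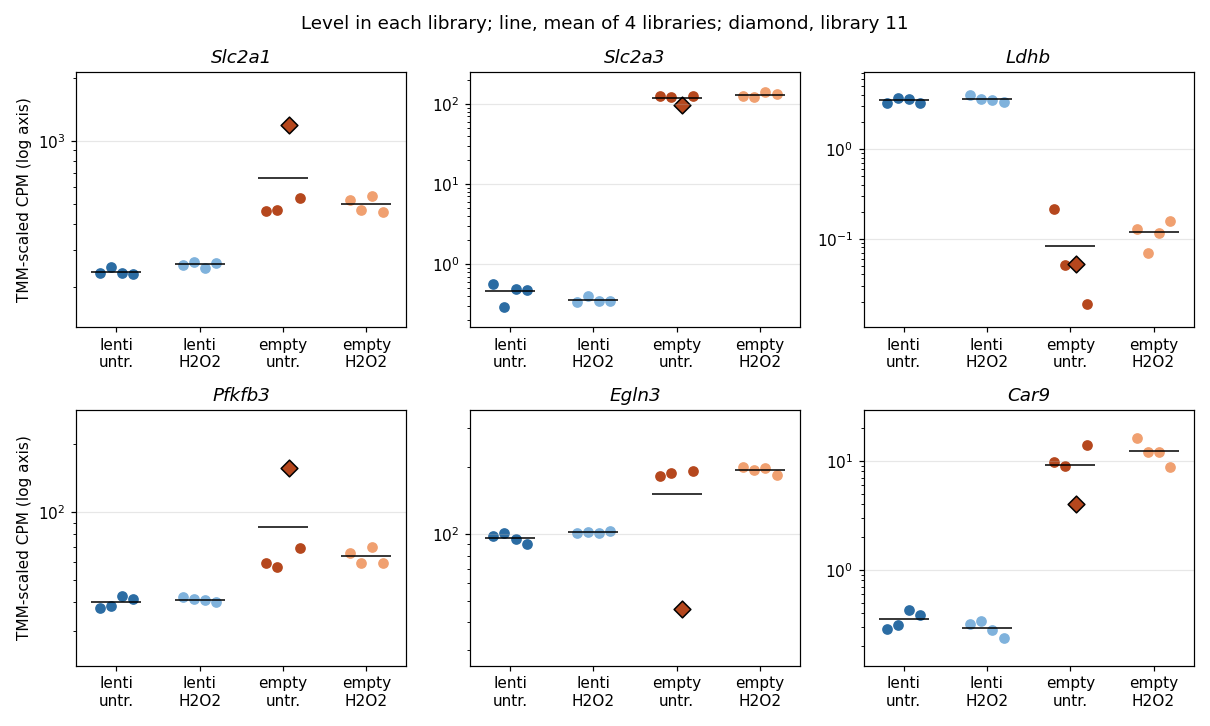
TMM-scaled CPM (y axis, log scale) of the members with the largest changes and of Egln3 in each of the 16 libraries, grouped on the x axis by vector and treatment; lines are means of 4 libraries and the diamond is library 11. Empty-vector libraries lie above lentivirus libraries for Slc2a1, Slc2a3, Pfkfb3 and Car9 and below them for Ldhb, and library 11 stands away from its group for Slc2a1, Slc2a3, Pfkfb3 and Egln3, and for Egln3 it lies below the lentivirus libraries.

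Both hexokinase genes were higher with the empty vector, and the isomerase of the next step was not. Hexokinase phosphorylates glucose, and Hk1 and the HIF-responsive Hk2 both rose. Hk1 ran from 366 to 416 CPM over lentivirus libraries and from 471 to 708 CPM over empty-vector libraries, and Hk2 from 193 to 248 and 262 to 343 CPM, with no overlap for either gene. The log2 changes of Hk1 were 0.56 ± 0.10 (adjusted p = 0.000231) untreated and 0.30 ± 0.10 (adjusted p = 0.0195) with H2O2, and those of Hk2 were 0.52 ± 0.08 (adjusted p = 7.19e-05) and 0.39 ± 0.08 (adjusted p = 0.000825). The untreated Hk2 call was lost with unfiltered limma on log2(FPKM + 1) (0.40, adjusted p = 0.0509). Hk2 made up 35.5% to 40.0% of the hexokinase FPKM in lentivirus libraries and 39.3% to 43.7% in empty-vector libraries other than library 11, group means 2.82 points apart untreated without library 11 and 2.66 points apart with H2O2. Gpi1, glucose-6-phosphate isomerase, changed little: -0.10 ± 0.06 (adjusted p = 0.158) untreated and -0.16 ± 0.06 (adjusted p = 0.0455) with H2O2, a call that was lost when any library other than 9, 11, 12 or 13 was left out. Without library 11 Gpi1 was called lower in both, at -0.12 ± 0.05 (adjusted p = 0.0218) and -0.16 ± 0.04 (adjusted p = 0.00251).

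Phosphofructokinase 1 carries out the committing step of glycolysis as a tetramer of liver (Pfkl), muscle (Pfkm) and platelet (Pfkp) subunits. The shares of their transcripts differed between the vectors, and the protein was not measured. Pfkp stood at 419, 439, 437 and 417 CPM in untreated and 450.3, 470.1, 459.9 and 465 CPM in treated lentivirus cells. It stood at 604, 592, 1113 and 654 CPM in untreated and 650.2, 620.1, 667 and 626 CPM in treated empty-vector cells. Every empty-vector library was above every lentivirus library. Pfkl stood at 429, 464, 427 and 429.8 CPM and 466, 499, 458 and 463 CPM in lentivirus cells, untreated and treated. It stood at 380.4, 397, 217 and 408 CPM and 403, 395, 410.5 and 377 CPM in empty-vector cells. With the empty vector Pfkl lay below every lentivirus library of the same treatment, with library 11 far down. Pfkp rose by 0.79 ± 0.15 (adjusted p = 0.000677) untreated and 0.47 ± 0.15 (adjusted p = 0.022) with H2O2, whereas Pfkl was called only without library 11, at -0.15 ± 0.04 (adjusted p = 0.00302) and -0.25 ± 0.04 (adjusted p = 4.8e-06). Pfkm ran from 135 to 156 CPM in lentivirus and 164 to 316 CPM in empty-vector libraries and was called at 0.54 ± 0.16 (adjusted p = 0.0124) untreated, or 0.26 ± 0.04 (adjusted p = 5.63e-06) without library 11, and the call with all libraries was lost in a fit of the compared groups only (0.54, adjusted p = 0.1).

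Per unit of length, Pfkl gave 39.7, 40.7, 39.7 and 39.9% of the summed phosphofructokinase FPKM in lentivirus libraries 1 to 4 and 39.9, 40.9, 40.0 and 39.4% in libraries 5 to 8. It gave 29.6, 30.7, 11.9 and 29.6% in empty-vector libraries 9 to 12 and 29.5, 30.2, 29.8 and 29.3% in libraries 13 to 16. The share of Pfkp went the other way, from 42.4% to 44.1% in lentivirus libraries to 52.1% to 54.5% in empty-vector libraries other than library 11. The shares did not overlap between the vectors, and group means differed by 10.0 points (Pfkl) and 10.3 points (Pfkp) in untreated cells without library 11 and by 10.3 points each under H2O2. The share of Pfkm stayed between 16.0% and 17.7% outside library 11. FPKM shares are described here and were not tested.

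**Figure D3:**
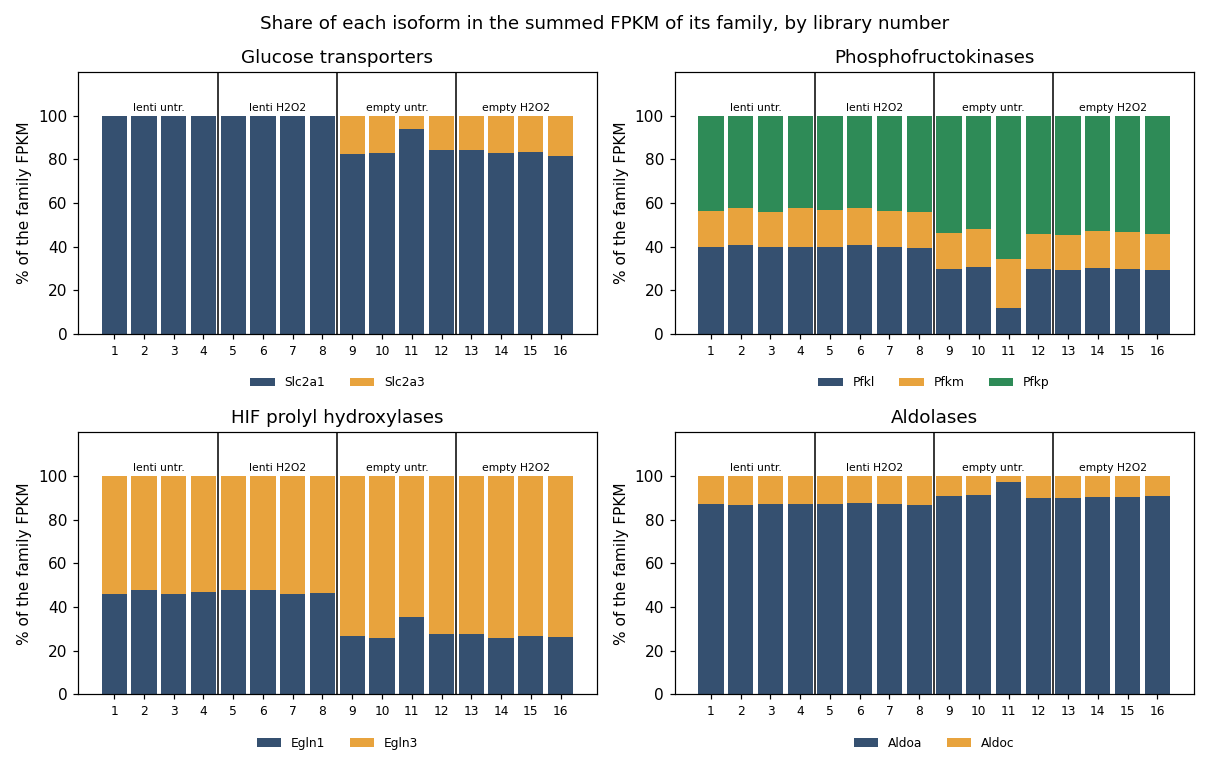
Share of each isoform (colours) in the summed FPKM of its family (y axis, %) in libraries 1 to 16 (x axis), split by vector and treatment. The orange Slc2a3 and Egln3 parts and the green Pfkp part are larger in empty-vector libraries, the Aldoc part is smaller, and library 11 departs from its group in all 4 families.

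The enzymes that split fructose bisphosphate did not follow the hexokinases upward. Aldolase C (Aldoc), the brain-type isoform and a known hypoxia-responsive gene, fell by 0.87 ± 0.16 on the log2 scale in untreated cells (adjusted p = 0.000497) and by 0.73 ± 0.16 with H2O2 (adjusted p = 0.00226), the latter call lost with unfiltered limma on log2(FPKM + 1) (-0.67, adjusted p = 0.0751). It ran from 208 to 238 CPM over lentivirus and from 70.8 to 154 CPM over empty-vector libraries. Aldoa, the main aldolase, was not called with all libraries (0.12 ± 0.16 untreated, adjusted p = 0.519); without library 11 its sign turned and it was called at -0.14 ± 0.05 (adjusted p = 0.00968) and, with H2O2, -0.21 ± 0.04 (adjusted p = 0.000196). Aldoc gave 12.6% to 13.4% of the aldolase FPKM in lentivirus and 8.77% to 10.3% in empty-vector libraries other than library 11. The annotation gives 2 gene IDs for the symbol Aldoa, and its deposited FPKM behaves as their average, so its level per length is uncertain.

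Of the enzymes of the later steps, Tpi1 (triosephosphate isomerase) and Pgk1 (phosphoglycerate kinase, the first step that yields ATP) were lower with the empty vector. Pgk1 ran from 2320.3 to 2513 CPM over lentivirus libraries and from 1890.2 to 2119.7 CPM over empty-vector libraries, with no overlap, and its log2 change was -0.30 ± 0.05 (adjusted p = 0.000445) untreated and -0.26 ± 0.05 (adjusted p = 0.00124) with H2O2, a call lost with limma on log2(FPKM + 1) (-0.24, adjusted p = 0.0927). Tpi1 was called at -0.24 ± 0.07 (adjusted p = 0.0132) untreated, a call lost in a fit of the compared groups only (adjusted p = 0.107) and with limma on FPKM (adjusted p = 0.0711 to 0.119), and, without library 11, at -0.19 ± 0.04 (adjusted p = 0.000306) with H2O2. Gapdh, the dehydrogenase often used as a reference gene, was among the most abundant members at 2716 to 3192 CPM and was called lower only under H2O2 without library 11, at -0.13 ± 0.04 (adjusted p = 0.00526). Pgam1 (phosphoglycerate mutase) and Pkm (pyruvate kinase, the last step) were not called in any of the 4 vector tests, with or without library 11. Pgam1 was called in untreated cells, at 0.43 to 0.44, when library 9, 10 or 12 was left out in place of 11. Pkm ran from 4138 to 4726 CPM over lentivirus and from 4162 to 4587 CPM over empty-vector libraries other than library 11, where it reached 9106 CPM.

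Enolase was slightly higher with the empty vector. The neuronal form Eno2 ran from 91.0 to 105 CPM over lentivirus and from 106 to 159.9 CPM over empty-vector libraries and changed by 0.39 ± 0.11 (adjusted p = 0.0101) untreated and 0.51 ± 0.11 (adjusted p = 0.00199) with H2O2. Eno1, the main form, changed by 0.24 ± 0.07 (adjusted p = 0.00732) untreated and, without library 11, by 0.13 ± 0.04 (adjusted p = 0.00203) with H2O2. Both untreated calls were lost in a fit of the compared groups only (adjusted p = 0.0579 for Eno2 and 0.0898 for Eno1). That of Eno2 was also lost with limma on FPKM (adjusted p = 0.057 to 0.0961) and that of Eno1 with unfiltered limma on log2(FPKM + 1) (adjusted p = 0.07). The near-identical copy of Eno1, Eno1b, took 39.7% to 42.6% of the counts of both, so how reads were split between them is uncertain, and Eno1b itself changed by 0.22 ± 0.08 untreated (adjusted p = 0.0264). Eno2 gave 5.97% to 7.02% of the FPKM of Eno1 and Eno2 in lentivirus libraries and 6.33% to 9.55% in empty-vector libraries, ranges that overlap.

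Of the 2 lactate dehydrogenase subunits, only Ldhb was called. Ldha, the subunit that favours lactate and a textbook HIF target, stood at 2149.5 to 2406 CPM in lentivirus and 2215 to 2372 CPM in empty-vector libraries other than library 11 (1488 CPM), and its log2 change was 0.00 ± 0.04 (adjusted p = 0.916) untreated and -0.01 ± 0.03 (adjusted p = 0.739) with H2O2 without that library. Ldhb, the heart-type subunit that favours pyruvate, was low in all cells. It stood at 3.27, 3.71, 3.59 and 3.23 CPM in untreated and 3.99, 3.59, 3.45 and 3.34 CPM in treated lentivirus cells. It stood at 0.212, 0.0507, 0.0518 and 0.0186 CPM in untreated and 0.127, 0.0690, 0.115 and 0.159 CPM in treated empty-vector cells, from 12, 3, 2 and 1 counts untreated and 7, 4, 7 and 9 counts treated. All empty-vector libraries lay below all lentivirus libraries. The log2 change was -5.30 ± 0.41 (adjusted p = 1.03e-07) untreated, -5.16 ± 0.29 (adjusted p = 2.99e-12) without library 11 and -4.91 ± 0.39 (adjusted p = 1.35e-07) with H2O2. Per unit of length Ldhb gave only 0.180% to 0.279% of the FPKM of the 2 subunits even in lentivirus cells, so Ldha made up nearly all lactate dehydrogenase transcripts in every library.

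Lactate leaves the cell through monocarboxylate transporters. Slc16a1, which encodes MCT1, rose with the empty vector. It ran from 187 to 203 CPM over lentivirus and from 254 to 332 CPM over empty-vector libraries without overlap, with log2 changes of 0.63 ± 0.07 (adjusted p = 5.03e-06) untreated and 0.63 ± 0.07 (adjusted p = 4.74e-06) with H2O2. Slc16a3, which encodes the hypoxia-induced exporter MCT4, was nearly absent and failed the filter. It had 0 counts in all 8 lentivirus libraries, 2, 0, 3 and 3 counts in empty-vector libraries 9 to 12 and 4, 0, 2 and 2 with H2O2. Against a floor of 3 counts over a group it was at least 2.78-fold higher with the empty vector untreated and at least 2.64-fold higher with H2O2, by counting error only.

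Regulators that feed or brake the pathway differed by step. PFKFB enzymes make fructose 2,6-bisphosphate, the strongest activator of phosphofructokinase 1. Pfkfb3 stood at 37.8, 38.5, 42.6 and 41.2 CPM in untreated and 42.1, 41.6, 40.7 and 40.0 CPM in treated lentivirus cells. It stood at 59.9, 57.1, 157 and 69.7 CPM in untreated and 66.0, 59.6, 70.3 and 59.5 CPM in treated empty-vector cells. Empty-vector libraries were above all lentivirus libraries, and library 11 was far above the others. The log2 change was 1.10 ± 0.25 (adjusted p = 0.00193) untreated, 0.64 ± 0.07 (adjusted p = 2.34e-07) without library 11, 0.63 ± 0.24 (adjusted p = 0.0504) with H2O2 and 0.64 ± 0.06 (adjusted p = 9.08e-08) with H2O2 without library 11. Pfkfb4 rose too, by 0.83 ± 0.09 (adjusted p = 3.67e-06) untreated and 0.69 ± 0.09 (adjusted p = 2.32e-05) with H2O2, and ran from 26.9 to 28.6 CPM over lentivirus and from 44.3 to 62.1 CPM over empty-vector libraries. Pdk1, the kinase that shuts pyruvate dehydrogenase and so keeps pyruvate out of mitochondria, lay lower with the empty vector. It ran from 201 to 229.9 CPM over lentivirus and from 151 to 171 CPM over empty-vector libraries other than library 11, at 20.4 CPM. With all libraries Pdk1 was not called untreated (-0.80 ± 0.40, adjusted p = 0.104), and without library 11 it was, at -0.45 ± 0.04 (adjusted p = 1.97e-08) untreated and -0.44 ± 0.04 (adjusted p = 7.4e-09) with H2O2.

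The HIF alpha subunits were not alike. Hif1a mRNA ran from 101 to 118 CPM over lentivirus libraries and from 107 to 127 CPM over empty-vector libraries other than library 11, which stood alone at 481 CPM. Its call in untreated cells rested on that library for its size: 0.94 ± 0.36 (adjusted p = 0.0403) with it and 0.14 ± 0.05 (adjusted p = 0.0107) without it, and it was not called under H2O2 (0.04 ± 0.36, adjusted p = 0.938). The call was also lost when any one of libraries 1 to 8 or 13 to 16 was left out. Epas1, the HIF-2 alpha gene, rose. It ran from 18.4 to 21.3 CPM over lentivirus and from 25.3 to 37.5 CPM over empty-vector libraries without overlap, and changed by 0.65 ± 0.10 (adjusted p = 8.26e-05) untreated and 0.41 ± 0.10 (adjusted p = 0.00359) with H2O2. Epas1 gave 11.2% to 14.0% of the FPKM of the pair in lentivirus and 14.3% to 16.8% in empty-vector libraries other than library 11. Arnt, the shared partner, ran from 77.3 to 90.9 CPM over all libraries and was called only in untreated cells without library 11, at 0.11 ± 0.04 (adjusted p = 0.0115).

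The prolyl hydroxylases that sense oxygen changed in opposite directions once library 11 was left out. Egln1, the main oxygen sensor in most cells, stood at 115, 127, 112 and 109.7 CPM in untreated and 127, 129, 119 and 123 CPM in treated lentivirus cells. It stood at 91.9, 89.7, 34.7 and 103 CPM in untreated and 105, 93.8, 99.4 and 90.5 CPM in treated empty-vector cells, below all lentivirus libraries. Egln3, the hydroxylase that HIF itself induces most, stood at 98.4, 102, 95.3 and 90.1 CPM in untreated and 102, 102, 101 and 103 CPM in treated lentivirus cells. It stood at 183, 188, 46.0 and 193 CPM in untreated and 202, 194, 198 and 186 CPM in treated empty-vector cells. The empty-vector libraries lay above all lentivirus libraries, with the exception of library 11, which lay below them all. With all libraries Egln3 was called under H2O2 at 0.93 ± 0.30 (adjusted p = 0.0197) and not in untreated cells (0.66 ± 0.30, adjusted p = 0.0718), and without library 11 it was called in untreated cells at 0.97 ± 0.04 (adjusted p = 8.07e-15). With limma on log2(FPKM + 1) the change of Egln3 under H2O2 was 0.94 and was not called (adjusted p = 0.0877). Egln1 was called without library 11, at -0.29 ± 0.06 (adjusted p = 0.000288) and -0.36 ± 0.05 (adjusted p = 1.38e-05). Per unit of length, Egln3 gave 54.1, 52.5, 54.1 and 53.2% of the FPKM of the pair in libraries 1 to 4 and 52.4, 52.2, 54.0 and 53.6% in libraries 5 to 8. It gave 73.3, 74.3, 64.7 and 72.2% in libraries 9 to 12 and 72.6, 74.1, 73.4 and 73.9% in libraries 13 to 16. The shares did not overlap between the vectors, library 11 included, and group means differed by 19.8 points untreated without library 11 and by 20.4 points with H2O2.

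Genes best known as hypoxia targets went both ways. Car9 encodes carbonic anhydrase IX, a cell-surface enzyme that handles the acid load of glycolysis and is used as a hypoxia marker in tumours. It stood at 0.286, 0.309, 0.424 and 0.388 CPM in untreated and 0.320, 0.343, 0.281 and 0.239 CPM in treated lentivirus cells. It stood at 9.77, 9.03, 3.99 and 14.0 CPM in untreated and 16.2, 12.0, 12.1 and 8.83 CPM in treated empty-vector cells. Even library 11, the lowest of these 8, was above every lentivirus library. The log2 change was 4.70 ± 0.35 (adjusted p = 6.91e-08) untreated, 4.95 ± 0.26 (adjusted p = 1.32e-10) without library 11 and 5.37 ± 0.36 (adjusted p = 2.4e-08) with H2O2. Its deposited FPKM was 0.150 to 0.490 in lentivirus and 2.04 to 14.2 in empty-vector libraries. P4ha1, a subunit of the collagen prolyl 4-hydroxylase, rose by 0.34 ± 0.06 (adjusted p = 0.000164) untreated and 0.24 ± 0.06 (adjusted p = 0.00323) with H2O2, and its relative P4ha2 was called lower under H2O2 alone, at -0.45 ± 0.17 (adjusted p = 0.0446), a call lost when any library other than 9 to 13 was left out.

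Mitophagy genes and several other targets lay lower with the empty vector. Bnip3, a mitophagy receptor, ran from 459 to 557 CPM over lentivirus and from 352 to 410.3 CPM over empty-vector libraries other than library 11 (82.3 CPM). Its log2 change was -0.78 ± 0.31 (adjusted p = 0.0481) untreated, -0.47 ± 0.06 (adjusted p = 7.45e-07) without library 11 and, again without it, -0.31 ± 0.05 (adjusted p = 4.05e-05) with H2O2. The untreated call with all libraries was lost when any one of libraries 1 to 8 or 13 to 16 was left out. The related Bnip3l ran from 479 to 536 and 355 to 412 CPM and changed by -0.41 ± 0.05 (adjusted p = 1.76e-05) untreated and -0.30 ± 0.05 (adjusted p = 0.000306) with H2O2, but on the deposited FPKM scale its untreated change was -0.16 (adjusted p = 0.329) and its change with H2O2 was 0.01 (adjusted p = 0.97) by limma and its levels overlapped, at 244 to 292 and 167 to 296 FPKM. Ankrd37, a small ankyrin-repeat protein gene among the most regular HIF targets, ran from 17.5 to 21.4 CPM over lentivirus and from 9.02 to 13.4 CPM over empty-vector libraries and changed by -0.87 ± 0.10 (adjusted p = 7.48e-06) untreated and -0.55 ± 0.10 (adjusted p = 0.000499) with H2O2. Ndrg1, a stress and hypoxia gene, was called at -0.51 ± 0.17 (adjusted p = 0.0241) untreated, a call lost without library 2 (-0.48, adjusted p = 0.059), and, without library 11, at -0.34 ± 0.10 (adjusted p = 0.00788) with H2O2. Vegfa, the angiogenic factor, and Higd1a, a mitochondrial protein gene, were not called in any vector comparison with or without library 11, though Vegfa was called in untreated cells, at 0.46, when library 9 or 10 was left out. Vegfa ran from 74.4 to 92.6 CPM over lentivirus and from 78.5 to 117 CPM over empty-vector libraries other than library 11 (150.1 CPM). Adm, the adrenomedullin gene, had 1 to 18 counts in every library but library 11, which had 93, and was not tested.

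**Figure D4:**
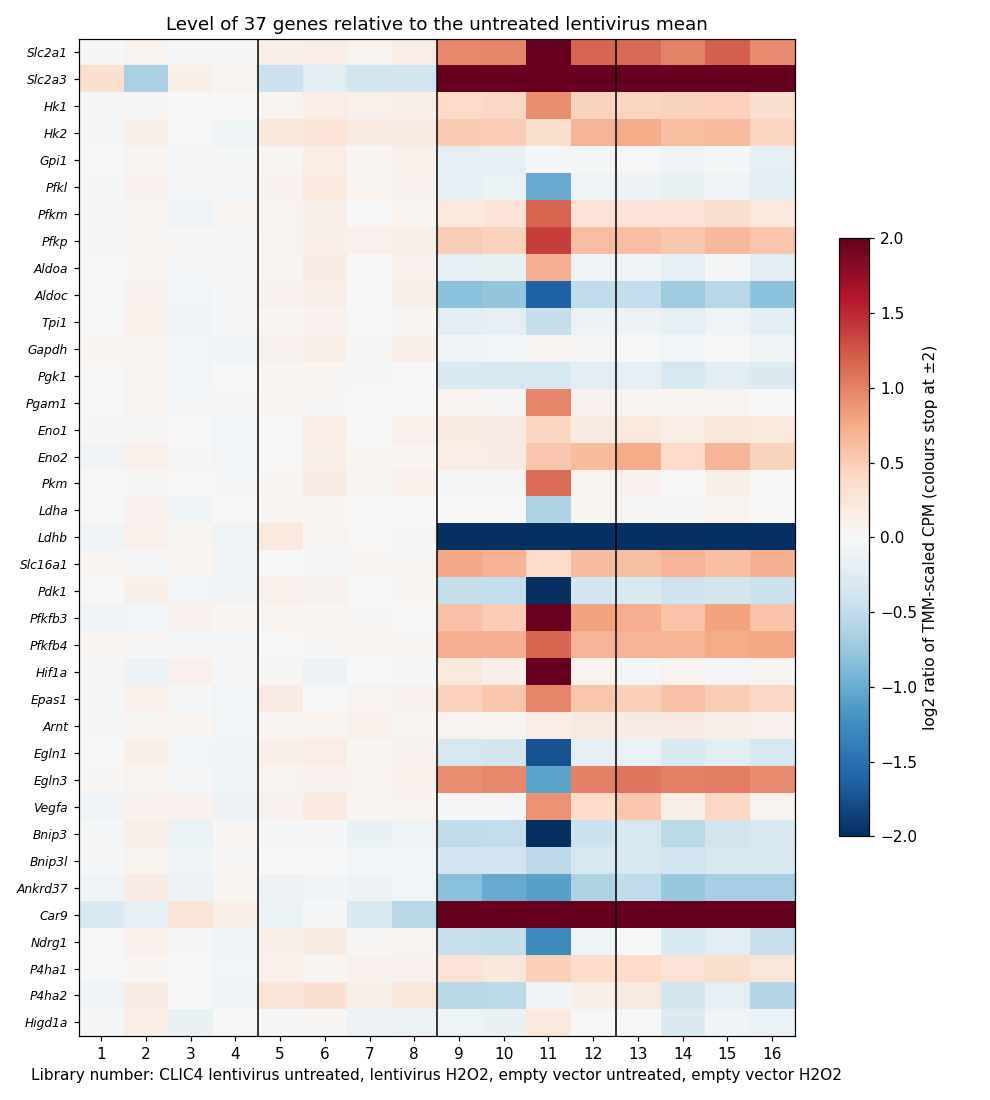
Log2 ratio of the TMM-scaled CPM of each tested member (rows) in each library (columns, grouped by vector and treatment) to the mean of the 4 untreated lentivirus libraries; red is higher, blue lower, and colours stop at ±2. Columns 9 to 16 differ from columns 1 to 8 in both directions, treated and untreated columns of a vector look alike, and column 11 stands apart in Hif1a, Pdk1, Pkm, Bnip3 and Egln3.

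Genes of the same pathways that are not among the 39 were counted in the same fits. Of 36 other glycolysis and lactate genes, 21 were tested, 9 rose and 4 fell with the empty vector in untreated cells and 7 and 4 under H2O2, beside 29.0% and 24.3% of all genes untreated and 22.1% and 20.0% under H2O2. Without library 11 the counts were 10 and 6 in each, beside 37.0% and 37.3% of all genes untreated and 36.6% and 37.2% under H2O2. These shares are the background for the other lists too. Among them the muscle fructose bisphosphatase gene Fbp2 stood at 1.89 ± 0.242 CPM in lentivirus and 53.4 ± 3.29 CPM in empty-vector cells with H2O2 (mean ± SD, n = 4 each), a log2 change of 4.82 ± 0.14 (adjusted p = 3.39e-12). The fructose transporter gene Slc2a5 stood at 0.0332 ± 0.0341 and 1.19 ± 0.190 CPM, while the muscle mutase gene Pgam2 was lower, at 0.351 ± 0.0967 and 0.0349 ± 0.0152 CPM. Pgm3, at 15.5 ± 0.777 and 33.9 ± 2.67 CPM, was counted in this list but encodes phosphoacetylglucosamine mutase, an enzyme of hexosamine synthesis and not of glycolysis. All 4 were called in both vector comparisons. Of 13 genes of pyruvate entry into mitochondria, 12 were tested, and 4 were higher and 3 lower untreated and 4 and 2 with H2O2, or 4 and 4 and then 5 and 4 without library 11. Pdk2, a pyruvate dehydrogenase kinase, fell from 79.9 ± 3.81 to 32.1 ± 2.58 CPM with H2O2 (log2 change -1.32 ± 0.23, adjusted p = 0.000350), whereas its relative Pdk3 rose from 14.0 ± 0.530 to 21.0 ± 0.503 CPM (0.58 ± 0.08, adjusted p = 1.92e-05). Pdp2 and Pdp1 of the same list were also higher with H2O2, with log2 changes of 0.47 (adjusted p = 7.09e-05) and 0.34 (adjusted p = 0.000754).

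Of 13 other regulators of HIF, 9 were tested, none was higher with all libraries, and 4 were lower untreated and 5 with H2O2, beside 24.3% and 20.0% of all genes. Leaving out library 11 gave 1 higher and 5 lower untreated and 1 higher and 7 lower with H2O2, beside 37.0% and 37.3%, then 36.6% and 37.2% of all genes. They include Vhl, the ubiquitin ligase subunit that captures hydroxylated HIF, with a log2 change of -0.26 ± 0.06 (adjusted p = 0.00349), the prolyl hydroxylase gene Egln2 at -0.23 ± 0.07 (adjusted p = 0.0164) and Hif1an, which encodes the asparaginyl hydroxylase that blocks HIF activity, at -0.24 ± 0.09 (adjusted p = 0.0457), all with H2O2. Of 44 other genes known to respond to hypoxia, 37 were tested, 11 were higher and 9 lower untreated (29.0% and 24.3% of all genes), and 8 and 10 with H2O2 (22.1% and 20.0%). Without library 11 these became 14 and 17 untreated and 13 and 18 with H2O2, beside 37.0% and 37.3%, then 36.6% and 37.2% of all genes. The median log2 change of the 37 barely moved. It was -0.047 untreated with all libraries and -0.062 without library 11, and 0.034 and 0.035 with H2O2. The lysyl hydroxylase gene Plod1 rose from 144 ± 3.94 to 423 ± 21.2 CPM with H2O2 (log2 change 1.56 ± 0.07, adjusted p = 5.60e-10) and the glycogen-targeting gene Ppp1r3c from 0.0127 ± 0.0167 to 2.40 ± 0.263 CPM. The lipase inhibitor gene Angptl4 fell from 20.4 ± 1.43 to 5.48 ± 0.471 CPM (-1.90 ± 0.15, adjusted p = 1.92e-07) and the cytokine gene Mif from 465 ± 21.9 to 305 ± 32.2 CPM (-0.61 ± 0.08, adjusted p = 1.67e-05).

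The peroxide treatment itself moved none of the 37 tested genes past the threshold in the fits of all groups. In empty-vector cells, in lentivirus cells and in the difference between their responses, 0 of the 37 tested members were called by edgeR, where 0.0% of all genes were called in each of the 3. DESeq2 and limma on log2(FPKM + 1) also called 0 members in each. At an unadjusted p under 0.05 there were 2 members in empty-vector cells (Hif1a and Ankrd37), 1 in lentivirus cells (Hk2) and 2 in the difference (Slc2a3 and Ankrd37). Without library 11 the calls were again 0 of 37 (backgrounds of 0.123% higher and 0.116% lower in empty-vector cells, 0.0% in lentivirus cells, and 0.0685% and 0.123% in the difference), with 1, 11 and 3 members at an unadjusted p under 0.05. The 11 in lentivirus cells were Slc2a1, Hk1, Hk2, Gpi1, Pfkl, Pfkm, Pfkp, Gapdh, Pkm, Egln3 and P4ha1. Hif1a was the 1 in empty-vector cells, and Hk1, Bnip3 and Ankrd37 were the 3 in the difference. The share of all genes at an unadjusted p under 0.05 is not given, so these counts, with or without library 11, have no background beside them. A fit on lentivirus libraries alone called Hk2, from 199.8, 223, 207 and 193 CPM untreated to 240.1, 248, 232 and 233 CPM treated, at 0.21 ± 0.04 (adjusted p = 0.0385). The treated libraries were above the untreated ones for this gene. The share of all genes called in that fit is not given, so this call has no background beside it. Without library 11 the log2 changes with H2O2 ran from -0.13 (Hif1a) to 0.31 (Ldhb) over members in empty-vector cells and from -0.34 (Slc2a3) to 0.23 (P4ha2) in lentivirus cells, with medians of 0.03 and 0.06 beside -0.01 and 0 over all genes. Mitochondrial mRNA was higher in treated than in untreated empty-vector libraries other than library 11, and its part in these comparisons was not tested. The treatment comparisons share their libraries with the vector comparisons.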

How the data were processed

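RNA-seq libraries of 6DT1 cells were analysed from 2 tables. Raw counts were deposited as whole-number counts for 25745 genes, and the authors also deposited FPKM for 25372 genes. Per the submitters' processing notes, cutadapt, STAR and RSEM were used with the mouse build mm10. For versions, annotation and the use of strand in counting, nothing was given in the sources used here. Exons of 14 of the 39 members overlap a gene on the opposite strand and those of 3 overlap one on the same strand in GENCODE, so some of their reads may be assigned ambiguously.

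Counts were filtered (filterByExpr), scaled by TMM and tested in 1 fit of all 16 libraries with edgeR 4.0.16 (quasi-likelihood F test, R 4.3.3), with Benjamini-Hochberg adjustment over all genes tested. The SE of a log2 change is its size divided by the square root of F. All tests were repeated without library 11. DESeq2 1.42.0 and limma 3.58.1 on log2(FPKM + 1) were alternatives, as were other filters, size factors and pseudocounts and leaving out each library. Isoforms of 12 families were compared per length as shares of FPKM, with no test. Ratios against 0 counts use a floor of 3 counts over a group, which allows for counting error in the 0 counts only.

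The members and lists were chosen with earlier results of these data known. Values by library are given for members called with a change of at least 2-fold between the vectors and for isoform families whose share differed by at least 10 points. Of the other pathway genes, at most 4 a role are named, those called in both vector comparisons with the smallest adjusted p under H2O2. Clic4 and the cell markers are given besides, and Eno1b was chosen after its values were seen. Promoter windows come from the RefSeq table (GRCm38.p6), where 35 members matched.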

Additional observations from a re-analysis of the deposited data

Results flagged for a closer look

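Of 154 groups of 4 libraries examined (each of the 39 members in each group, less the 2 groups where Slc16a3 had 0 counts throughout), 22 held a library whose gap to its nearest neighbour, divided by the range of the group, was above Dixon's critical value at the 5% level. Chance flags about 1 in 20 groups. Library 11 was the distant one in 19 of the 22, higher than its group in 13 and lower in 6, and library 2 in the other 3.

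Library 11 stood above the other untreated empty-vector libraries for Slc2a1 (1186 CPM), Hk1 (708 CPM), Pfkm (316 CPM), Pfkp (1113 CPM), Aldoa (1673 CPM), Pgam1 (1582.5 CPM), Eno1 (1547 CPM), Pkm (9106 CPM), Pfkfb3 (157 CPM), Pfkfb4 (62.1 CPM), Hif1a (481 CPM), Epas1 (37.5 CPM) and Adm (2.41 CPM). It stood below them for Slc2a3 (96.7 CPM), Pfkl (217 CPM), Ldha (1488 CPM), Pdk1 (20.4 CPM), Egln3 (46.0 CPM) and Bnip3 (82.3 CPM). Library 2 stood above the other untreated lentivirus libraries for Slc2a1 (249.6 CPM), Pfkl (464 CPM) and Epas1 (20.4 CPM).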

How the results depend on the processing

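No paired analysis was made, because library numbers run from 1 to 16 over the groups and the labels name no pairs. Whether libraries of different groups were prepared in parallel is unknown. All 23 untreated and 19 H2O2 calls between the vectors were recomputed, and 14 and 13 of them held under every setting run. Those lost in some setting were Hk2, Pfkm, Tpi1, Eno1, Eno2, Hif1a, Bnip3, Bnip3l and Ndrg1 untreated and Gpi1, Aldoc, Pgk1, Egln3, Bnip3l and P4ha2 with H2O2. The counts of members called higher stayed within 1.5 times of 15 and 12. Called lower in untreated cells were 8 members, 6 to 13 when 1 library was left out (13 without library 11), 5 in a fit of the compared groups only, 5 with limma on log2(FPKM + 1), 4 on log2(FPKM + 0.1) and 4 with no filter. Under H2O2 they were 7, 5 to 15 when 1 library was left out (15 without library 11), 15 in the compared groups only, and 4, 4 and 2 with the same limma settings. The compared groups under H2O2 do not hold library 11, so that fit takes no spread from it. In lentivirus cells 0 members were called higher with H2O2 in the fit of all 16 libraries and 1 (Hk2) in the compared groups only. For the latter fit the share of all genes called is not given.

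Some signs turned. Most of these values lie near 0, but Bnip3l with H2O2 was a call, and Aldoa untreated was called with the sign turned without library 11. Aldoa untreated was 0.12, -0.14 to 0.21 without 1 library and -0.042 with each limma setting. Gapdh untreated was -0.01, -0.037 to 0.0076 without 1 library, 0.0070 with RLE size factors and 0.0048 with DESeq2. Ldha untreated was -0.13, and -0.18 to 0.0046 without 1 library. Ldha with H2O2 was -0.01, -0.024 to 0.0026 without 1 library, 0.00012 with no filter and 0.0062 with each limma setting. Higd1a untreated was 0.00084, -0.076 to 0.056 without 1 library, -0.014 with no filter, -0.045 with a filter of 10 CPM and -0.0040 with each limma setting. Higd1a with H2O2 was -0.06 and 0.12 with each limma setting. Bnip3l with H2O2 was -0.30 and 0.0088 or 0.0089 with limma. The cause was not tested. With limma on FPKM the median of all genes for H2O2 in empty-vector cells moved from 0.02 to 0.11 (pseudocount 1) and 0.14 (pseudocount 0.1), and for the difference of responses from 0.03 to 0.11 and 0.14. Ldhb, Slc16a3 and Adm rest on few counts.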

Other observations

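Against the mean of libraries 9, 10 and 12, library 11 was at least 2-fold higher for 4 of the 37 tested members and at least 2-fold lower for 5. The share of all genes this far apart is not given, so it is open whether the members differ more than other genes. The position of library 11 also depends on the scale. Hk1 in library 11 stood at 708 CPM beside 491 to 507 CPM in libraries 9, 10 and 12, but at 127 FPKM beside 132 to 137 FPKM in the same libraries.

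Many members shared their highest libraries within a vector. In the 7 empty-vector libraries other than library 11, libraries 12, 13 and 15 held the 3 highest levels for 22 of 37 members (59.5%), among them Slc2a1, Hk2, Pfkp, Pgk1, Ldha, Pdk1, Vegfa and Car9, and for 875 (6.06%) of all 14445 genes. Library 12 is untreated and libraries 13 and 15 are treated. Among the 8 lentivirus libraries, library 6 was the highest for 16 of 37 members (43.2%, against 12.3% of all genes) and library 2 for 9 (24.3%, against 8.97%). These libraries were picked after the levels were seen, so the counts are descriptions, and no test was made.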
